A study of Schizosaccharomyces pombe with 15 samples.

Results

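The genes of flocculation followed here, 10 of the 5113 protein-coding genes on the 3 chromosomes of the Schizosaccharomyces pombe reference, were examined by chromatin immunoprecipitation sequencing (ChIP-seq) of the transcription factor Scr1. They are the regulator genes gsf1, mbx2, cbf11, cbf12, adn2 and adn3 and the flocculin genes gsf2, pfl3, pfl5 and pfl7. The genes were chosen on measured values, since the presence and height of their Scr1 peaks in these same lists were known when the set was drawn up. The peak calls below are therefore a description of 10 genes and carry no test. An exact permutation test of 2 lists against 2 could not in any case go below a two-sided p of 0.333.

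Scr1 is a zinc finger repressor of the Mig1 type that holds down genes of alternative carbon use when glucose is plentiful. The 3 groups compared held 2 independent cultures each, and in all of them Scr1 carried a TAP tag that was precipitated through its Protein A part, with no untagged strain beside them. The first is Wilmar-P, an industrial bioethanol isolate labelled h90 scr1::TAP-KanMX6, in molasses medium. The second is a laboratory strain in molasses, whose strain label reads 972h- Scr1-TAP while its genotype label reads h+ with ura4, leu1 and ade6 markers. The third is Wilmar-P in rich medium with 3% glucose. Per the labels, cells grown in glucose medium were washed and kept in the test medium for 4 hours. By the study's methods a washed culture was divided between the media, so molasses and glucose cultures of Wilmar-P may share a parent culture, but which replicate numbers belong together is not given in the sources used here. As labelled, the strains differ in mating type and nutritional markers as well as in origin, and no list of the laboratory strain in glucose was among those used here, so the strains can be compared in molasses and the media in Wilmar-P. Wilmar-P reads were aligned to the laboratory strain's genome. The study found sequence loss in the Wilmar strains mainly in the subtelomeres of chromosome II. Of the genes here, adn2, pfl5 and pfl7 lie 137, 114 and 118 kb from an end of that chromosome. Whether sequence differences there affect their Wilmar-P peaks was not tested.

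Flocculation is the calcium-dependent clumping of yeast cells through cell wall glycoproteins, the flocculins, that bind sugars on neighbouring cells. In fission yeast the main flocculin is Gsf2, and the flocculin genes are silent in most laboratory cultures. They are switched on by the MADS-box factor Mbx2 and the CSL-family factor Cbf12, and held down by the zinc finger factor Gsf1 and by Cbf11, the second CSL protein.

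A gene was credited with a peak when the summit lay inside it or within 2000 bp upstream of its start, and a peak counted for a group when both replicate lists held one. Fold enrichment is the authors' ratio of immunoprecipitate over input at the summit. The study's methods name an input sample for each condition, so the replicate lists of a group are likely to share their input and are not independent in it. The lists were of very unequal length, with 961 and 1073 peaks for Wilmar-P in molasses, 4239 and 4479 for the laboratory strain in molasses, and 386 and 228 for Wilmar-P in glucose. These counts precede the study's reproducibility filter across replicates, after which it reported more molasses sites in Wilmar-P than in the laboratory strain. The lists also differed in kind. Summits in coding exons made up 25.6% and 34.7% of the Wilmar-P molasses lists, 90.8% and 91.5% of the laboratory lists, and 35.0% and 8.33% of the Wilmar-P glucose lists. The median enrichment of a peak was 3.69-fold and 2.74-fold in Wilmar-P molasses, against 1.77-fold and 1.80-fold in the laboratory strain. For this reason summits outside coding exons are kept apart from those inside them throughout. The lists state no read depth, and fold enrichment moves with it.

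The DNA under the upstream summits is shown first, because the gene-by-gene results refer back to it. Each stretch was read from the RefSeq reference (ASM294v3, whose chromosome lengths fit the ASM294v2 coordinates of the peaks) on the strand of the gene, 5′ to 3′. In the first set, capitals mark every match to 2 words searched on both strands: TGACGT, of the kind bound by Atf1-Pcr1, and CCAAT, bound by the CCAAT-binding complex. No 2 matches overlapped, and the other words searched, given further on, were not in these stretches.
gsf2, chrIII:967577-967712, minus strand, around the summit shared by all 6 lists: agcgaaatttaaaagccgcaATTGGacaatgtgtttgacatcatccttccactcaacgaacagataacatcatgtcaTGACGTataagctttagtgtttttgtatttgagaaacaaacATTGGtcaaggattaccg
cbf12, chrIII:1870467-1870607, plus strand, around the Wilmar-P summits: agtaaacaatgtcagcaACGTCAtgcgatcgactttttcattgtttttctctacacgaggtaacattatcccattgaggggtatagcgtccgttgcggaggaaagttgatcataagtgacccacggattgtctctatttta
pfl5, chrII:4421254-4421334, plus strand, Wilmar-P molasses summit close to the start: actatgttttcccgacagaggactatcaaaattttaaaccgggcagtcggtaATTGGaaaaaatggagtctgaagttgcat
pfl7, chrII:120508-120588, minus strand, Wilmar-P molasses summit: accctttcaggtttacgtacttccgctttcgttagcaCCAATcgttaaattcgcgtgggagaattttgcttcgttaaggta

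In a second set, shown for contrast, none of the words was found in the stretch, and the single capital is the summit base of Wilmar-P in molasses, replicate 1.
gsf1, chrII:3010469-3010549, plus strand, the summit further upstream: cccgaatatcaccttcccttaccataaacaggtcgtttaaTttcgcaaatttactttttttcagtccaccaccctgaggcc
mbx2, chrII:3625470-3625550, plus strand: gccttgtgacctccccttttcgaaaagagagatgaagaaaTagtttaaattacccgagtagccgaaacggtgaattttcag
pfl3, chrII:672895-672975, minus strand: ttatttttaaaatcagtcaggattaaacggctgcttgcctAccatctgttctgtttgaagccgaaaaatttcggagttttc

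Of the 10 genes, 7 held a peak in both Wilmar-P molasses lists: gsf1, mbx2, cbf12 and the 4 flocculin genes. Over all protein-coding genes the share was 17.6%. In the laboratory strain all 10 held a peak, where 69.3% of all genes did. In Wilmar-P in glucose 3 did, gsf1, gsf2 and cbf12, where 4.93% of all genes did. The genes are long, with a median of 3461.5 bp against 1773 bp for all protein-coding genes, which widens the region in which a summit could fall. How far length enters these shares was not tested.

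With summits in coding exons set aside, Wilmar-P in molasses held more of the genes than the laboratory strain, as it did over all protein-coding genes. The 7 genes of Wilmar-P in molasses remained, where 13.1% of all genes were called. The laboratory strain kept 4, gsf1, gsf2, mbx2 and cbf12, where 5.48% of all genes were called. The glucose lists kept their 3 genes, where 4.62% were called. Upstream peaks at pfl3, pfl5 and pfl7 were thus found in both Wilmar-P molasses lists and in neither laboratory list, a pattern held by 7.51% of all genes. With coding summits included, none of the 10 genes had a peak in both Wilmar-P molasses lists and in neither laboratory list, and 1.55% of all genes did. Between media, mbx2, pfl3, pfl5 and pfl7 had peaks in both Wilmar-P molasses lists and in neither glucose list. That pattern was held by 10.3% of all genes with any summit and by 7.67% with summits outside coding exons, and the members were the same 4 under both.

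**Figure D1:**
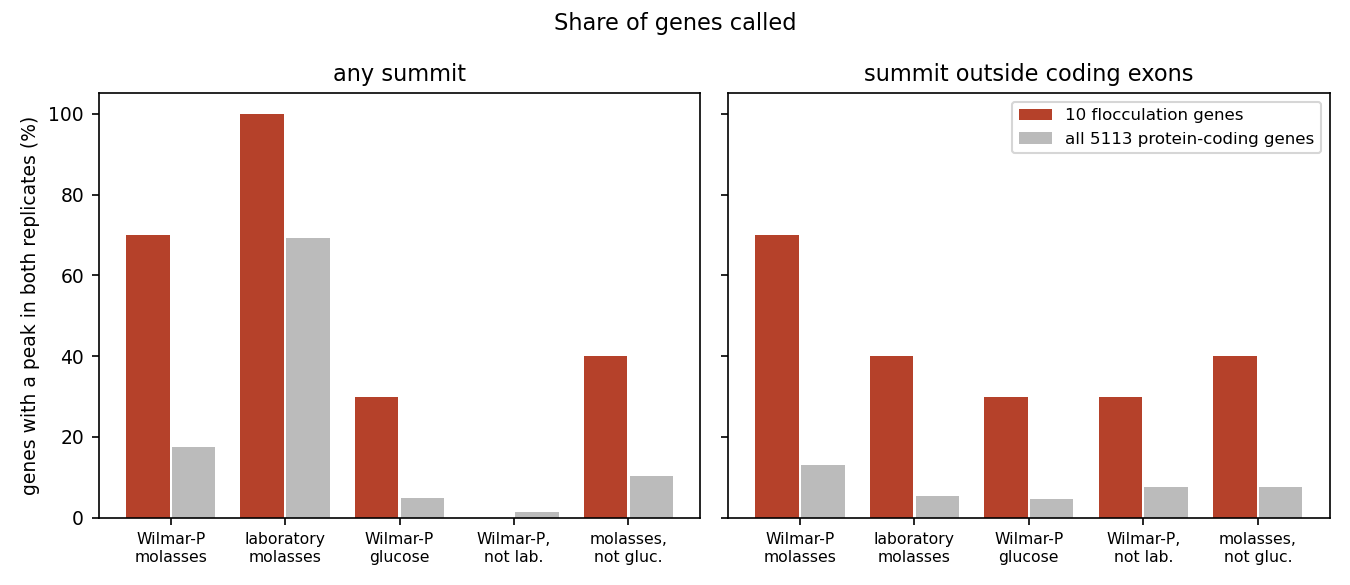
Share of genes with a peak in both replicate lists, in percent, for the 10 flocculation genes and for all 5113 protein-coding genes, by group and for 2 differences between groups, with any summit (left) and with summits outside coding exons (right). The laboratory bar of the 10 genes is at 100% on the left and at 40% on the right, while the Wilmar-P molasses bar is at 70% on both sides.

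Summits of different lists within 200 bp of each other were joined into places, and the 10 genes held 40 of them, 14 outside coding exons and 26 inside. Of the 14, 11 were in both Wilmar-P molasses lists, 5 in both laboratory lists and 3 in both glucose lists. Of the 26 coding places, 5 were in both Wilmar-P molasses lists, 13 in both laboratory lists and 0 in the glucose lists. Places were not counted in this way over all genes. In the whole lists, coding exons held 25.6% and 34.7% of Wilmar-P molasses summits and 90.8% and 91.5% of laboratory summits. In glucose they held 35.0% and 8.33%. The coding summits of the 10 genes were low in both strains. They reached no more than 3.02-fold and 2.99-fold in Wilmar-P molasses and 3.61-fold and 3.71-fold in the laboratory strain. Outside coding exons the highest enrichment was 53.1-fold and 39.0-fold in Wilmar-P molasses, 13.5-fold and 11.2-fold in the laboratory strain, and 9.26-fold and 7.51-fold in Wilmar-P in glucose.

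**Figure D2:**
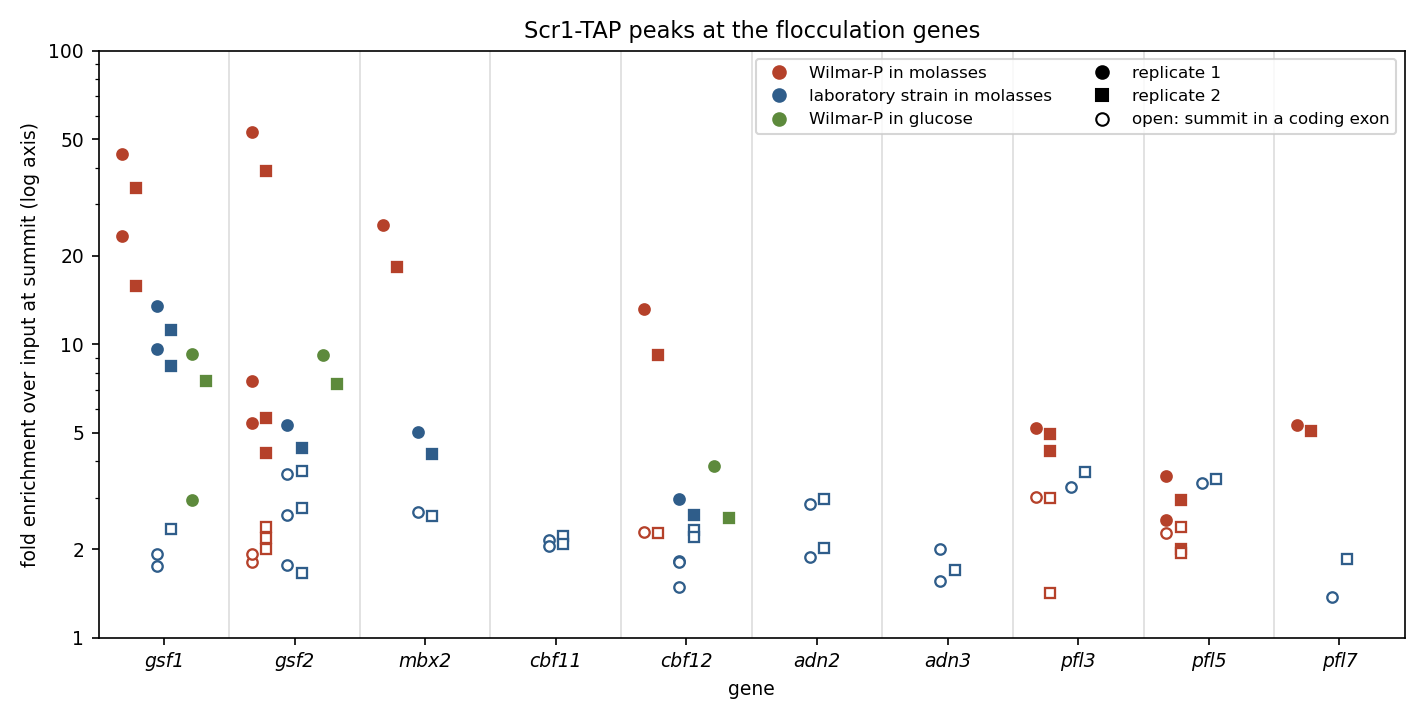
Fold enrichment over input at the summit (log axis) of every Scr1-TAP peak credited to the 10 genes, for Wilmar-P in molasses, the laboratory strain in molasses and Wilmar-P in glucose, with circles for replicate 1, squares for replicate 2 and open symbols for summits in coding exons. The filled Wilmar-P molasses points of gsf1, gsf2 and mbx2 reach 44.3-fold, 53.1-fold and 25.5-fold, and cbf11, adn2 and adn3 hold open laboratory points only.

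Among the regulators, gsf1 encodes a zinc finger repressor of gsf2 whose loss makes cells flocculate. The gene lies on chromosome II, 3011512 to 3015079, on the plus strand, with an annotated 5′ UTR of 1422 bp. About 1000 bp upstream of its start, where the non-coding RNAs SPNCRNA.1571 and SPNCRNA.1572 are annotated, Scr1 enrichment was 44.3-fold and 34.1-fold in Wilmar-P in molasses. The laboratory strain had 13.5-fold and 11.2-fold there, and in glucose 1 of the 2 lists held a peak, of 2.94-fold. The molasses values of the strains did not overlap. Of the 192 places outside coding exons shared by the 4 molasses lists, 93.8% were higher in Wilmar-P. The gsf1 peak held ranks 30 and 30 in the Wilmar-P lists, the top 3.12% and 2.80%. Its ranks were 24 and 28 in the longer laboratory lists, the top 0.566% and 0.625%.

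A second gsf1 place lay close to the start, with no summit of Wilmar-P in molasses. Its summits were 217 and 227 bp upstream in the laboratory strain, at 9.64-fold and 8.45-fold, and 130 and 151 bp upstream in Wilmar-P in glucose, at 9.26-fold and 7.51-fold. This was the leading gsf1 peak in glucose, at ranks 54 and 48. The Wilmar-P molasses peaks around the distal summit were nevertheless 2951 and 2923 bp wide and ran across the whole place, ending 43 and 28 bp past the gene start. A single summit is given for such a wide peak, so a second maximum inside it would not be listed.

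The third gsf1 place was held by both Wilmar-P molasses lists and by no other. It lay in the 5′ UTR, 648 and 654 bp past the annotated start, with 23.3-fold and 15.8-fold enrichment, and held CTGGGG, a word of the kind bound by Mig1-type factors such as Scr1, 70 and 64 bp from the summits. Mig1-type words also lay near gsf1 summits of the other groups. The laboratory strain instead had low peaks in the coding exon, of which the one seen in both lists reached 1.75-fold and 2.35-fold. Just beyond the 2000 bp limit, peaks 2612 and 2576 bp upstream in the laboratory strain had 3.40-fold and 3.15-fold enrichment, and peaks 2502 and 2512 bp upstream in glucose had 3.89-fold and 3.48-fold.

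mbx2 encodes the MADS-box activator of flocculin genes and lies on chromosome II, 3626639 to 3628658, plus strand. One peak stood upstream of it in molasses, at 1129 and 1111 bp in Wilmar-P, inside SPNCRNA.1625, with 25.5-fold and 18.3-fold enrichment. The laboratory summits were at 1096 and 1112 bp, with 5.03-fold and 4.24-fold. Again the enrichment did not overlap between strains, Wilmar-P being higher as at most shared places outside coding exons. Ranks were 86 and 103 in Wilmar-P, the top 8.95% and 9.60%. In the longer laboratory lists they were 86 and 101, the top 2.03% and 2.25%. Neither glucose list held a peak at mbx2, and none of the searched words lay in the printed stretch. The laboratory strain had a further broad peak over the coding sequence, of 2.69-fold and 2.599-fold.

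cbf12, the CSL-family gene whose product promotes adhesion, lies on chromosome III, 1871367 to 1875842, plus strand. Wilmar-P peaks stood between the genes, 797 and 781 bp upstream, with 13.2-fold and 9.20-fold enrichment in molasses. In glucose they stood at 772 and 817 bp with 3.84-fold and 2.56-fold, the replicate 2 peak being among the last of its list at rank 226 of 228. Laboratory summits were nearer to the gene, at 327 and 332 bp, with 2.97-fold and 2.62-fold, and these peaks lay inside the span of the Wilmar-P molasses peaks, 1175 and 1022 bp wide. The printed stretch has TGACGT on the opposite strand, 84 bp from the replicate 1 summit of Wilmar-P in molasses and 64 bp from the replicate 2 summit in glucose. The start nearest to the Wilmar-P summits is that of the neighbouring meu10, a gene of spore wall formation, so these peaks could be credited to either gene. Wilmar-P in molasses also had a low peak in the meu10 coding exon just inside the limit, at 1981 and 1967 bp, with 2.299-fold and 2.27-fold. Just outside it, a higher peak in meu10 stood at 2813 and 2806 bp, with 18.1-fold and 14.3-fold in Wilmar-P and 5.42-fold and 4.65-fold in the laboratory strain.

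The other 3 regulator genes had no peak in either Wilmar-P molasses list or either glucose list. cbf11, which opposes adhesion, lies on chromosome III, 327378 to 330732, and had laboratory peaks in its coding exon of 2.16-fold and 2.09-fold. Its upstream laboratory peaks, at 1543 and 1825 bp, lay in the coding exon of uri1. adn2, on chromosome II, 4400383 to 4402869, encodes a transcription factor of adhesion and had coding peaks of 2.85-fold and 2.97-fold and of 1.88-fold and 2.02-fold. The related gene adn3, on chromosome III, 2344715 to 2348598, had a coding peak of 1.56-fold and 1.70-fold and a second one in replicate 1 alone, of 1.9998-fold. The enrichment of adn3 was thus close to the laboratory lists' medians of 1.77-fold and 1.80-fold, and that of cbf11 and the first adn2 peak above them.

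Among the flocculin genes, gsf2 encodes the dominant flocculin of fission yeast, a galactose-binding cell wall protein also called Pfl1. It lies on chromosome III, 959199 to 966012, minus strand, with an annotated 5′ UTR of 2040 bp. It was the one gene of the 10 with a peak at the same place in all 6 lists, 1631 to 1661 bp upstream in SPNCRNA.1164 and SPNCRNA.1165. Enrichment was 53.1-fold and 39.0-fold in Wilmar-P in molasses, 5.30-fold and 4.44-fold in the laboratory strain, and 9.20-fold and 7.34-fold in Wilmar-P in glucose. Wilmar-P in molasses was above and apart from both other groups, and the glucose lists were above the laboratory lists. Most shared places outside coding exons were also higher in Wilmar-P in molasses, 93.8% against the laboratory strain and 98.8% against glucose. Within the lists the peak held ranks 18 and 18 for Wilmar-P in molasses, 78 and 87 for the laboratory strain and 39 and 41 for Wilmar-P in glucose. The printed stretch has TGACGT 11 to 41 bp from each of the 6 summits and a CCAAT word on either side of it.

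Outside coding exons, Wilmar-P in molasses had 2 further gsf2 places that no other list held. The first was 748 and 741 bp upstream, with 5.41-fold and 4.25-fold enrichment. The second was in the 5′ UTR, 780 and 793 bp past the start, with 7.49-fold and 5.62-fold, and had the Mig1-type word GCGGGG 92 and 79 bp from its summits. Inside the coding exon both strains had low peaks. The one 3209 and 3137 bp past the start in Wilmar-P, and 3129 and 3250 bp in the laboratory strain, had 1.82-fold and 2.18-fold in Wilmar-P and 2.61-fold and 2.76-fold in the laboratory strain. Wilmar-P in molasses had another in both lists, 5848 and 5841 bp past the start with 1.92-fold and 2.38-fold, and 1 in replicate 2 alone, at 4624 bp with 2.02-fold. The laboratory strain had others 5064 and 5075 bp past the start, of 3.61-fold and 3.71-fold, and 2280 and 2352 bp past it, of 1.77-fold and 1.66-fold.

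pfl3, pfl5 and pfl7 encode flocculin-like glycoproteins of the cell surface. At pfl3, on chromosome II, 669581 to 672835, minus strand, Wilmar-P in molasses had a peak 100 and 92 bp upstream of the start with 5.20-fold and 4.95-fold. Replicate 2 had another, 1602 bp upstream, of 4.33-fold, and both replicates had one just outside the limit at 2167 and 2135 bp, of 9.04-fold and 6.99-fold. The laboratory lists had none of these. Both strains shared a coding peak, of 3.02-fold and 2.99-fold in Wilmar-P and 3.26-fold and 3.66-fold in the laboratory strain.

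pfl5 lies on chromosome II, 4421395 to 4425608, plus strand, 114 kb from the chromosome end. Wilmar-P in molasses had low upstream peaks at 1142 and 1138 bp, of 3.57-fold and 2.94-fold, and at 101 and 99 bp, of 2.52-fold and 2.003-fold. Another stood just past the limit at 2035 and 2025 bp, of 2.90-fold and 2.49-fold. The place nearest the start has a CCAAT word 14 and 12 bp from its summits. The Wilmar-P molasses coding peak, with its summit 3154 bp past the start in both replicates, had 2.27-fold and 2.39-fold, and the laboratory strain had a coding peak of 3.36-fold and 3.49-fold, 2864 and 2831 bp past the start.

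pfl7 lies on chromosome II, 117892 to 119328, minus strand, 118 kb from the other end. Wilmar-P in molasses had an intergenic peak 1220 and 1227 bp upstream of 5.32-fold and 5.07-fold, with CCAAT within a few bases of the summit. Laboratory peaks were in the coding exon and low, 1.38-fold and 1.86-fold, with summits 61 and 598 bp past the start. None of the 3 pfl genes held a peak in glucose.

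**Figure D3:**
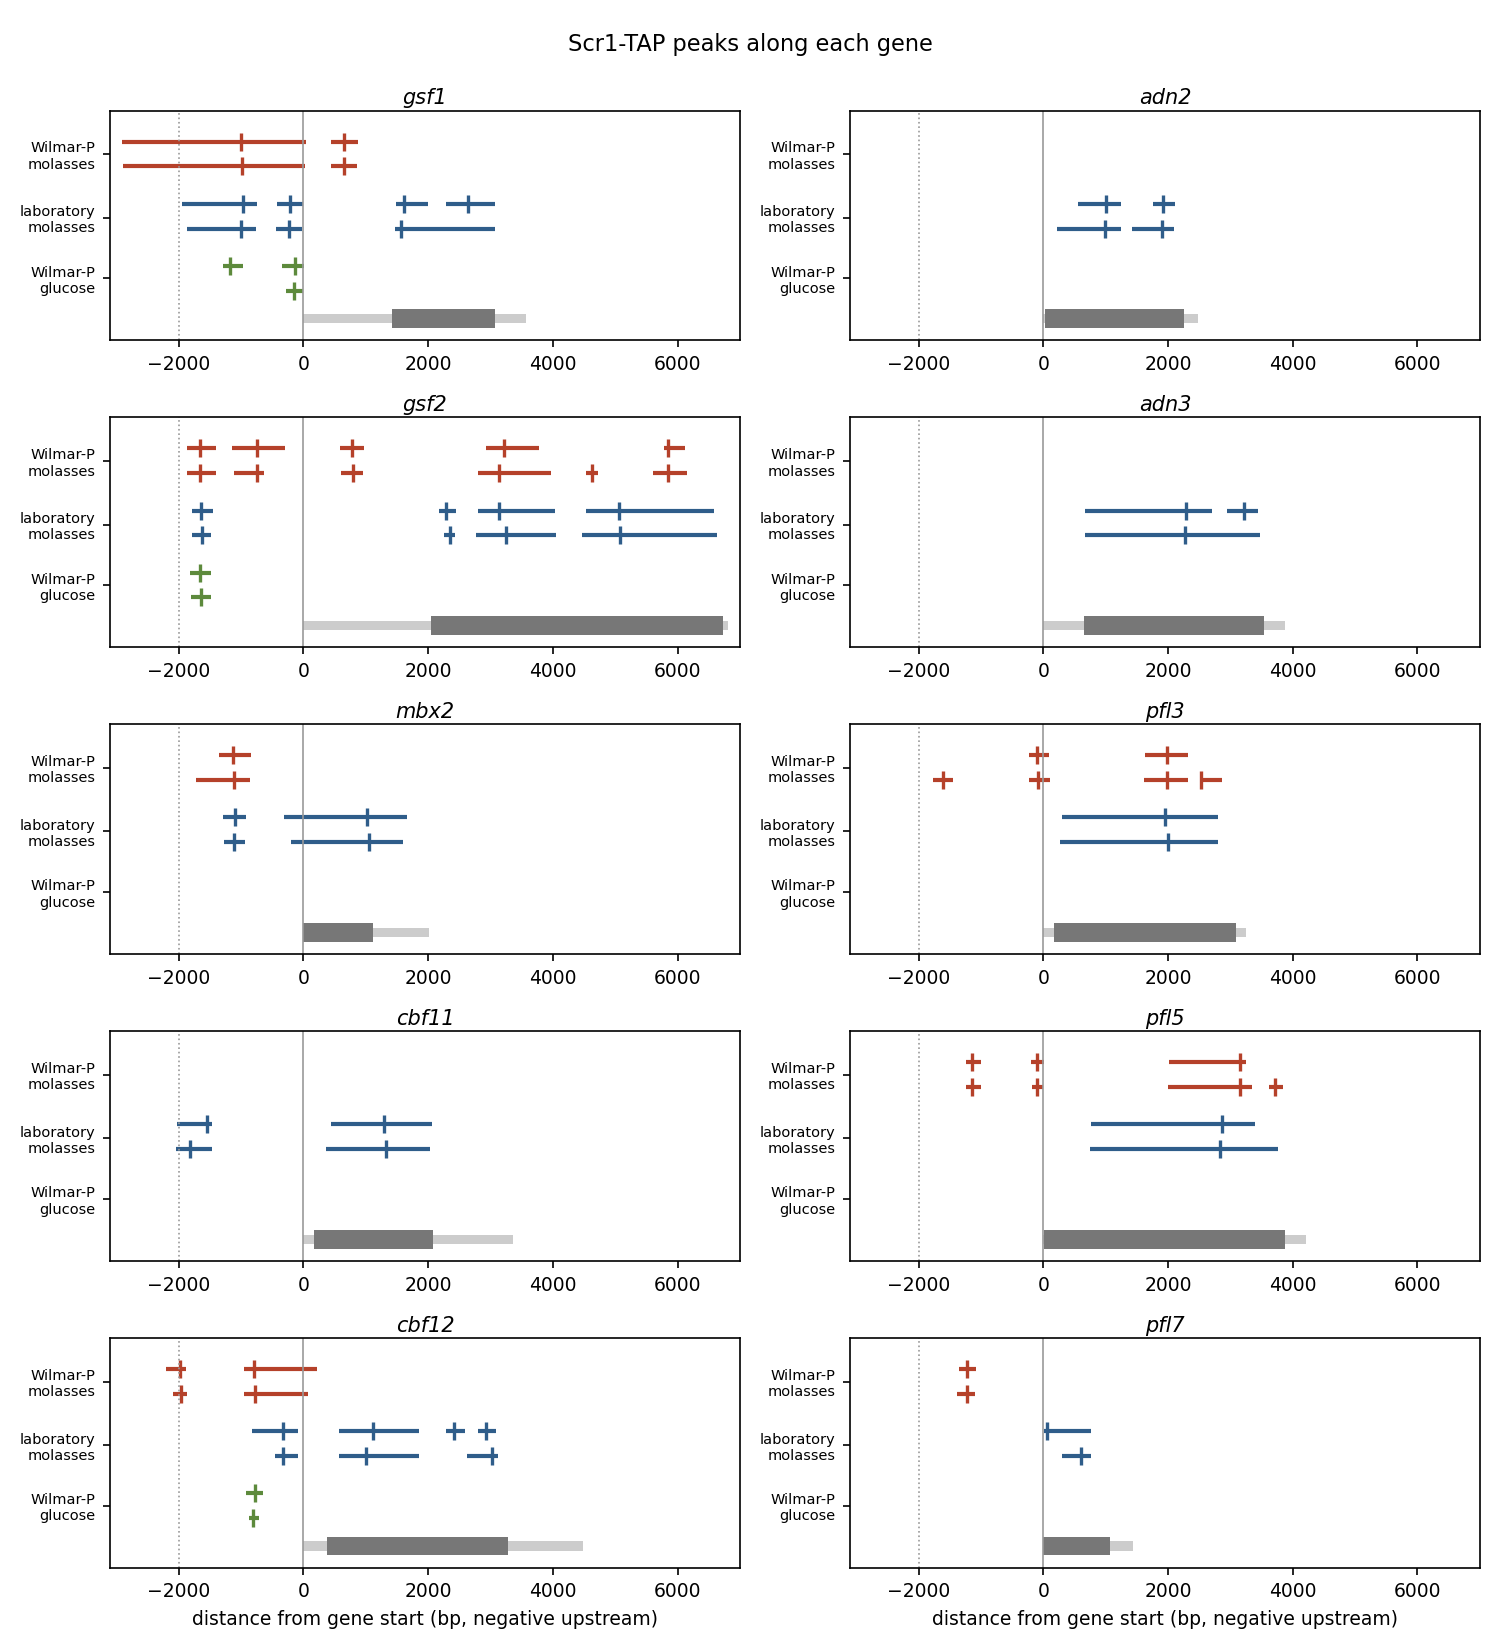
Scr1-TAP peaks along each of the 10 genes, by distance from the annotated gene start in bp, for both replicates of Wilmar-P in molasses, the laboratory strain in molasses and Wilmar-P in glucose, from top to bottom, with horizontal lines for peaks, ticks for summits, pale grey for the transcribed region, dark grey for the coding span and a dotted line at the 2000 bp limit. Most Wilmar-P summits lie left of the dark boxes, but gsf2, pfl3 and pfl5 also hold Wilmar-P molasses peaks over them. The 2951 bp and 2923 bp wide peaks of gsf1 cover the laboratory and glucose peaks near its start, and most laboratory peaks lie over the dark boxes.

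Most coding summits of gsf2, pfl3 and pfl5 lay near repeated sequence. These genes carry internal repeats, and of all 75-base stretches in them 37.6%, 28.1% and 40.05% occurred more than once in the reference genome, while the other 7 genes had none and 96.6% of all protein-coding genes had none. Within 100 bp of a coding summit, such a stretch was found at 9 of 13 summits in Wilmar-P molasses and at 8 of 33 in the laboratory strain, in each case at gsf2, pfl3 and pfl5. The laboratory gsf2 summits 2280 and 2352 bp past the start and the replicate 2 summits of Wilmar-P molasses at 2525 bp in pfl3 and 3710 bp in pfl5 had none. A read that lies wholly in a repeated stretch cannot be placed in 1 copy, and repeat number can differ between strains. The study's methods give 75 bp single-end or 100 bp paired-end reads, and do not say which lists had which. A longer read or a read pair may reach unique sequence. The part of repeats in these peaks was not tested. With all summits near repeats left out, an alternative added after seeing the data, the Wilmar-P molasses and glucose counts stayed at 7 and 3. The laboratory count went to 8, without pfl3 and pfl5, so that those 2 genes had peaks in both Wilmar-P molasses lists and in neither laboratory list.

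The size of the strain difference at these genes was set beside that of all shared places, these genes included. Across 192 places outside coding exons with a summit within 200 bp in all 4 molasses lists, enrichment in Wilmar-P over the laboratory strain had a median ratio of 3.72-fold, with quartiles of 1.43 and 2.36 on the log2 scale. Of these places 93.8% were higher in Wilmar-P. gsf1, at 3.16-fold, was at percentile 37.0 of these places, mbx2, at 4.68-fold, at percentile 67.2, and gsf2, at 9.38-fold, at percentile 99.0. The gsf1 and mbx2 ratios were thus like those of the lists as a whole. The coding places of gsf2 and pfl3 had ratios of 0.741 and 0.870, at percentiles 3.75 and 12.5 of the 80 shared coding places, whose median ratio was 1.13-fold and of which 73.8% were higher in Wilmar-P. Across 164 shared places outside coding exons between media, Wilmar-P in molasses over glucose had a median of 2.97-fold, and 98.8% were higher in molasses. Among them gsf2 was at 5.54-fold, percentile 92.1, and cbf12 at 3.52-fold, percentile 66.5. The ratios for strain and for medium share the Wilmar-P molasses lists and are not independent of each other.

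**Figure D4:**
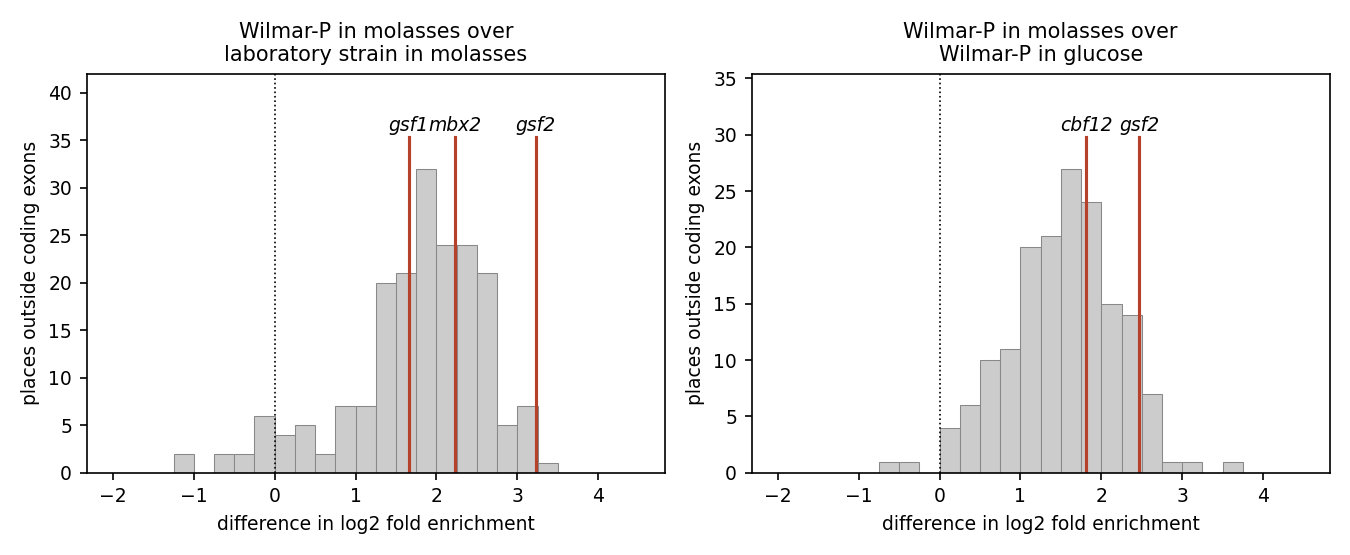
Difference in log2 fold enrichment between Wilmar-P in molasses and the laboratory strain in molasses (left, 192 places) and between the Wilmar-P cultures in molasses and in glucose (right, 164 places), as the number of shared places outside coding exons per bin, with red lines at the flocculation genes. gsf2 lies at 3.23 on the left, in the far right of the distribution, and at 2.47 on the right, while gsf1, mbx2 and cbf12 lie within the main body.

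The Mig1-type words searched for were GCGGGG with its variant GTGGGG, and CCGGGG with its variant CTGGGG. They and TGACGT were more frequent under Wilmar-P summits of all genes than along the genome. Within 100 bp of the summit, a Mig1-type word was present, on either strand, at 16.4% and 15.8% of Wilmar-P molasses peaks, 7.24% and 7.39% of laboratory peaks and 26.7% and 32.5% of glucose peaks, against 5.38% of all windows of that length. TGACGT, found upstream of gsf2 and cbf12 and in the uri1 exon upstream of cbf11, was present at 12.1% and 11.1%, 5.36% and 5.09%, and 14.8% and 23.2% in the same order, against 3.22% of windows. CCAAT, found at gsf2, pfl5 and pfl7 and near summits of other members too, was common everywhere, at 38.6% to 53.1% of peaks and 37.4% of windows. The CSL-type word GTGGGAA, of the kind bound by Cbf11 and Cbf12, stood near the gsf2 coding summits 3129 to 3250 bp past the start. It was not near the other gsf2 coding summits. Over all genes it was present at 1.04% to 1.98% of peaks and 1.34% of windows. A match is a description of the sequence and not a measured binding site.

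Other genes of the flocculation network were counted from a list of 24 names, of which 23 were matched. Of these, 8 held a peak in both Wilmar-P molasses lists, each with summits outside coding exons, beside 17.6% of all genes with any summit and 13.1% outside coding exons. In both laboratory lists 18 did, beside 69.3% of all genes, and 3 with summits outside coding exons, beside 5.48%. In both glucose lists 4 did, beside 4.93%. The flocculin gene pfl2 had the highest values, with a place 222 to 244 bp upstream in all 6 lists at 36.2-fold and 29.6-fold in Wilmar-P molasses, 12.1-fold and 11.6-fold in the laboratory strain and 10.4-fold and 13.6-fold in glucose. The flocculin gene pfl8 had 3.99-fold and 3.05-fold in Wilmar-P molasses and no peak elsewhere.

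Of the regulators, ssn6, which encodes a corepressor partner of Tup11 and Tup12, had 21.7-fold and 14.02-fold in Wilmar-P molasses and 5.26-fold and 4.97-fold in the laboratory strain. sre2, an SREBP-type factor gene, had 8.70-fold and 7.17-fold upstream in Wilmar-P molasses, while its strongest laboratory peaks, of 2.23-fold and 2.35-fold, lay in its coding exon. The 4 genes of the Mediator kinase module, whose loss is linked to flocculation, held no peak in both Wilmar-P molasses lists. Among cell wall genes, gas2, a glucan-modifying enzyme gene, had 14.6-fold and 10.1-fold in Wilmar-P molasses. At the same upstream place it had 2.72-fold and 2.13-fold in the laboratory strain and 5.17-fold and 8.65-fold in glucose. psu1, a SUN-family cell wall gene, had 14.8-fold and 13.7-fold in Wilmar-P molasses and 5.76-fold and 4.39-fold in glucose. In the laboratory strain it had 2.32-fold upstream in replicate 1 and 1.92-fold in the coding exon in replicate 2. pvg1, which adds pyruvate to galactose on cell wall glycans, had 12.2-fold and 9.90-fold in Wilmar-P molasses and no peak in glucose. Its laboratory values were 2.28-fold upstream in replicate 1 and 1.68-fold in the coding exon in replicate 2.

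The genes whose strongest peaks were most like those of gsf1 over the 6 lists were found by Euclidean distance of log2 enrichment. At gsf1 the strongest peak was the one further upstream in molasses and the one close to the start in glucose. The likeness is therefore to values from different gsf1 places. SPCC1235.17 and SPCC1235.18 came first, at a distance of 0.37, and share 1 peak, with 44.8-fold and 35.4-fold in Wilmar-P molasses, 12.02-fold and 10.7-fold in the laboratory strain and 11.3-fold and 8.32-fold in glucose. The third was scr1 itself, at a distance of 0.53, with 40.1-fold and 30.3-fold in Wilmar-P molasses, 13.7-fold and 11.9-fold in the laboratory strain and 11.9-fold and 9.26-fold in glucose.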

How the data were processed

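For Scr1-TAP, 6 ChIP-seq peak lists were used, 2 per group. Input and RNA polymerase II samples were not used here. Per the labels and the study's methods, the authors trimmed reads (Trim_Galore with cutadapt 1.9.1), aligned them with Bowtie2 2.3.1 to ASM294v2 and called peaks per replicate with MACS2 2.1.1 against input. The lists used here are those before replicates were merged. The study then corrected for the irreproducible discovery rate across replicates. That step was not applied here, so the peaks counted here are not the study's final binding sites. The deposited columns hold the fold enrichment, a ratio over input, −log10 p and −log10 q at the summit, and the summit position. Read depth is unknown, so fold enrichment carries no interval and is given with its rank by −log10 p.

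Gene positions and sequence came from a RefSeq release of the same assembly, whose 3 chromosomes match in name, and no peak ran past a chromosome end. Peaks on other sequences were left out. Scripts used Python and NumPy, and the assignment of summits and motif search were tested on simulated data. Named genes are all 10 members, the 3 genes most like gsf1, and listed network genes, with 1 exception, with peaks in both Wilmar-P molasses lists. Members and lists were chosen with earlier results of these data known. Alternatives covered the upstream window, −log10 q, enrichment, list length, overlap, coding summits, the nearest start and each replicate. Values of 1 listed network gene and 1 upstream sequence are not reported here.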

Additional observations from a re-analysis of the deposited data

How the results depend on the processing

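Counts of the 10 genes were recomputed under 7 planned settings, with each replicate left out, and under 1 setting added after seeing the data. With 1000 bp upstream, −log10 q of at least 5, any overlap of the peak with the region, or the nearest start only, each count stayed within 1.5 times its main value, though not always with the same genes: with 1000 bp upstream, mbx2 and pfl7 lost their call in Wilmar-P in molasses, and the genes called in molasses and not in glucose were gsf2, pfl3 and pfl5. At an enrichment of at least 3-fold, 2 genes, cbf12 and pfl7, were called in both Wilmar-P molasses lists and neither laboratory list (6.77% of all genes), and 5 in the laboratory strain (3.36%). With each list cut to its 228 strongest peaks, 4 genes were called in Wilmar-P in molasses (5.26% of all genes) and 6 in the laboratory strain (4.05%), and 1, mbx2, was left in both Wilmar-P molasses lists and neither glucose list (1.08%). With coding summits set aside, 4 genes were called in the laboratory strain and 3 in both Wilmar-P molasses lists and neither laboratory list. With summits near repeated stretches left out, the last count was 2, with no share over all genes computed. Fewer peaks enter under these settings by construction.

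Leaving out replicate 1 or replicate 2 of every group left each of the 5 counts as it was, at 7, 10, 3, 0 and 4. Without replicate 2 the share of all genes called was 8.68% in glucose, against 4.93% with both. In Wilmar-P molasses and not the laboratory strain it was 2.74% without replicate 2, against 1.55% with both. In Wilmar-P molasses and not glucose it was 15.5% without replicate 1 and 12.4% without replicate 2, against 10.3% with both. Counting peaks of the strains as 1 place by 1 bp of overlap joined them at 6 genes, and summits within 200 bp at 4. Between media the numbers were 3 and 2. Joined peaks were not counted over all genes, so these numbers have no share to be set against. The strongest peak of a gene was its first by −log10 p and not always its most enriched one. For gsf2 in laboratory replicate 2 it had 2.76-fold, beside another peak of 4.44-fold. The strongest peaks lay at different places in the strains for cbf12, pfl3, pfl5 and pfl7 and, in replicate 2, for gsf2. The log2 strain difference at each gene's strongest peak kept its direction without either replicate except at pfl5. At pfl5 it was -0.25 without replicate 1, 0.09 without replicate 2 and -0.08 with both. The differences between media at gsf1, where the summits were 873 bp apart, gsf2 and cbf12 kept their direction. With rank percentile in the list in place of enrichment, gsf1, mbx2, cbf12, pfl3 and pfl5 stood further down the Wilmar-P molasses lists than the laboratory lists, by 2.36, 7.13, 11.5, 31.4 and 30.8 percentile points, while gsf2 differed by -0.06 points and pfl7 by -29.0. No paired analysis was made. The counts carry no test, and which molasses and glucose replicates belong together is not given in the sources used here.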
